A study of Mus musculus with 24 samples.

Results

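The genes described here are 42 genes of mitochondrial and peroxisomal fatty acid oxidation and of the wider set of targets of the nuclear receptor PPARA, chosen by name from their known roles. Of these, 41 had a probe set that carried a single gene symbol, and all 41 passed the filter on low signal, out of 12950 genes tested and 18193 genes represented on the array. *Acsl1* was not analysed here for lack of such a probe set. Signals came from 24 Affymetrix whole-genome mouse arrays, 12 of liver and 12 of duodenum. Each tissue held 4 groups of 3 male mice of 7 weeks of age: wild-type C57BL/6 (B6 WT), *Hfe*-deficient C57BL/6 (B6 KO), wild-type DBA/2 (D2 WT) and *Hfe*-deficient DBA/2 (D2 KO). All mice had been fasted before they were killed. Loss of *Hfe*, the gene mutated in the common form of hereditary hemochromatosis, leads to iron loading of the liver. Knockouts of both backgrounds were bred in-house whereas wild types were bought, and therefore genotype and origin cannot be told apart. The labels number the arrays of a group as biological replicates, and do not say which liver and duodenum arrays share a mouse.

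During fasting, fatty acids reach the liver, are activated to acyl-CoA esters, and enter mitochondria through the carnitine shuttle, where the β-oxidation spiral shortens them and passes electrons to the respiratory chain. Very long and branched chains are shortened first in peroxisomes. PPARA is activated by fatty acids and, as a heterodimer with the retinoid X receptor, binds direct repeats of a short hexamer and drives many genes of these pathways, among them the acyl-CoA thioesterases that release free fatty acids from acyl-CoA.

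The probe set of *Hfe* followed the labels. Its liver signal was 674, 685 and 691 in B6 WT and 89.2, 86.2 and 98.8 in B6 KO, and it was 437, 434 and 515 in D2 WT and 82.9, 70.4 and 82.9 in D2 KO. The groups did not overlap in duodenum either, where the wild-type arrays lay between 76.6 and 105 and the knockout arrays between 15.7 and 45.1. The authors had scaled each array to a trimmed mean signal of 100, and the median signal of an array was 15.8 to 21.0 in liver and 20.1 to 23.4 in duodenum. Of 8 hepatocyte markers 7 were measured, and their summed liver signal was 78096 to 81237 in D2 WT, 74376 to 93248 in D2 KO, 79308 to 90117 in B6 WT and 65509 to 87570 in B6 KO, overlapping within each strain. In tissue RNA, fewer cells of a type and less RNA per cell cannot be told apart.

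In D2 liver, 14 of the 41 genes fell in the knockout and none rose, at an adjusted p of at most 0.1 by limma. The Benjamini-Hochberg adjustment was over all probe sets that passed the filter on low signal. Of all genes tested, 1.58% fell and 1.73% rose. The calls depend on limma's trend, which lets the expected variance follow the signal level, and without it only *Abcd2* was called. The genes that fell were *Cpt1a*, *Cpt2* and *Crat* of the carnitine shuttle, *Acadl*, *Acadm*, *Eci1* and *Decr1* of the mitochondrial spiral, *Etfdh* of electron transfer, the peroxisomal transporter *Abcd2*, and the thioesterases *Acot1*, *Acot2*, *Acot3*, *Acot4* and *Acot8*. Over the 41 genes the median log2 fold change was -0.33, beside 0.02 over all genes, and 37 had a negative value, beside 46.5% of all genes. For 18 of the 41 every D2 KO array lay under every D2 WT array, which was so for 8.59% of all genes tested. A list of 11 of the 41 genes held those that the study's text and tables name and *Decr1*, which only its longer gene lists name. Of the 11 genes 5 fell, with a median of -0.50. Of the other 30 genes 9 fell, with a median of -0.29. The study's longer gene lists, drawn from these same samples, hold some of those 30 as well, so neither count is independent evidence.

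**Figure D1:**
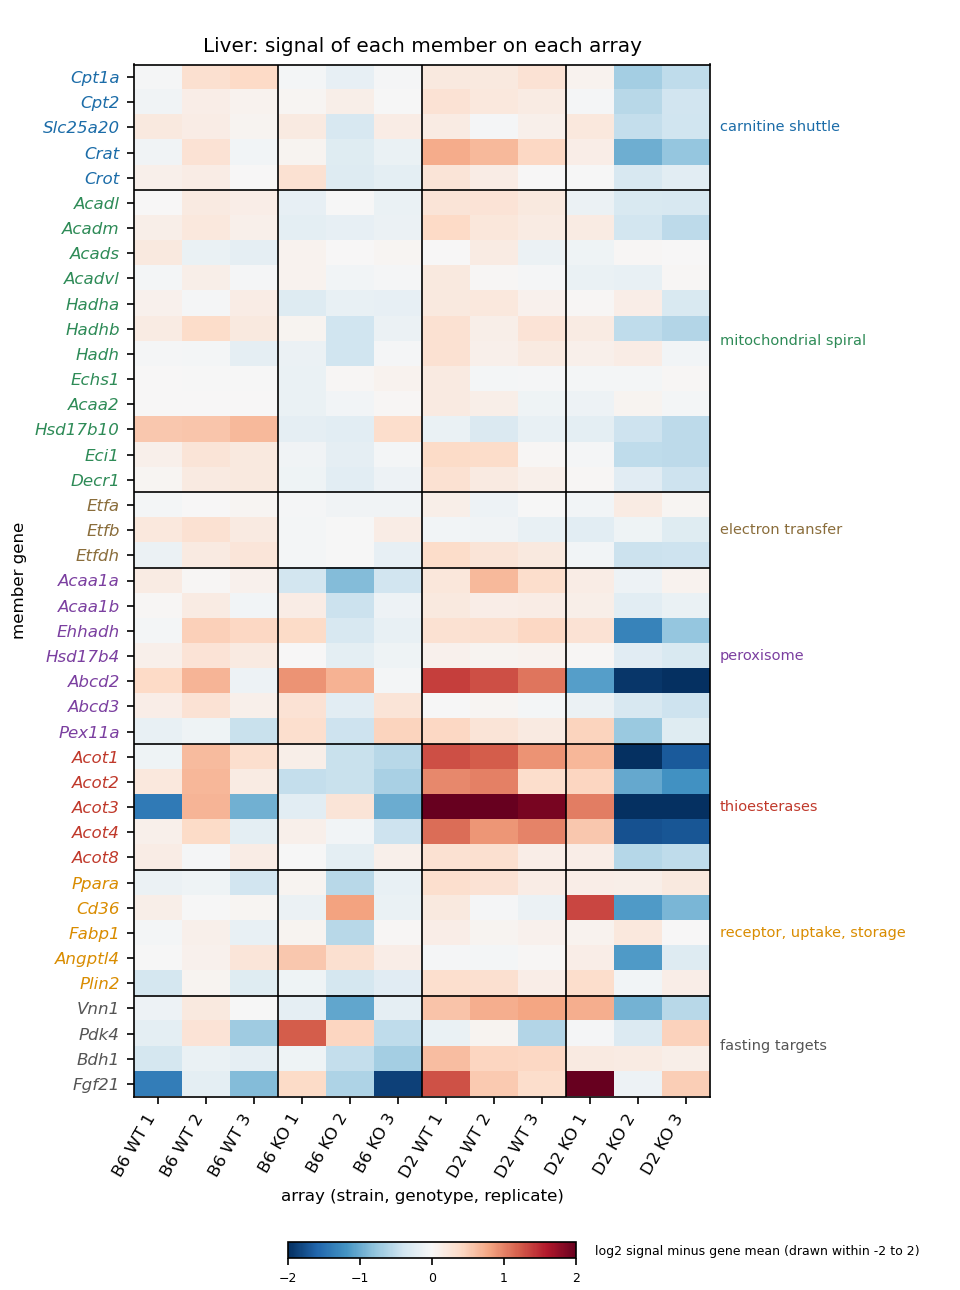
Heat map of the 41 genes (lines, grouped by role) over the 12 liver arrays (columns, by strain, genotype and replicate), coloured by the log2 signal minus the gene's mean over the 12 arrays, drawn within -2 to 2. The columns of D2 KO 2 and D2 KO 3 are low for most genes, with mean deviations of -0.53 and -0.46, while D2 KO 1 lies at 0.18, near the D2 WT columns at 0.23 to 0.40.

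The 3 D2 KO livers were not alike. The mean deviation of the 41 genes from their liver means was 0.40, 0.33 and 0.23 log2 units in D2 WT, and 0.18, -0.53 and -0.46 in D2 KO. D2 KO 1 thus lay just under the lowest wild-type array, and D2 KO 2 and D2 KO 3 lay far below. D2 KO 1 had the highest signal of its group for 30 of the 41 genes, or 73.2%, beside 31.5% of all genes tested, and for all 14 genes that fell. It was at or above the lowest D2 WT array for 17 of the 41 genes, among them 3 that fell (*Acadm*, *Acot2* and *Acot8*). D2 KO 2 and D2 KO 3 were both under every D2 WT array for 29 genes. The shares of all genes for the 17 and the 29 are not given here, and 2 arrays lie under all wild-type arrays more readily than 3 do. Without D2 KO 1, 22 genes fell, which were the same 14 and *Slc25a20*, *Hadhb*, *Ehhadh*, *Hsd17b4*, *Pex11a*, *Cd36*, *Angptl4* and *Vnn1*. The share of all genes that fell in that fit is not given here, so 22 has no reference beside it. Omitting D2 WT 1 left 3 of the 14, and omitting D2 WT 2 left 6. Without D2 KO 2 or without D2 KO 3, 3 of the 14 fell, and without both of these arrays only *Abcd2* was called, at a log2 fold change of -2.35 (adjusted p = 0.0199, limma). That last fit has a single D2 KO array, which is assumed to vary like the other groups, and it was chosen after the arrays were seen to differ.

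Other values moved with this split of the D2 KO livers. Of 10 pancreatic acinar genes 8 were measured, and their summed liver signal was 442 to 484 in D2 WT and 648, 1234 and 1233 in D2 KO. That sum was nearly all *Cela1*, at 399, 417 and 400 in D2 WT and 610, 1178 and 1147 in D2 KO, while the other 7 genes were at most 34.4 on any of these 6 arrays. The 7 measured of 8 enterocyte markers summed to 2274 to 2451 in D2 WT and to 2506, 1722 and 1750 in D2 KO. Most of that sum was *Fabp2*, a fatty acid binding protein that liver also expresses, at 2342, 1553 and 1579 in D2 KO, while *Alpi*, *Lct*, *Vil1* and *Cdx1* were at most 23.4 on these 6 arrays. The hepatocyte sum was 74376 in D2 KO 1, under every D2 WT array, and 93248 and 82747 in D2 KO 2 and D2 KO 3, above every D2 WT array. The part of these signals in the result was not tested. The arrays were also hybridized in runs. All 3 D2 KO livers shared a run with D2 WT 3 alone. Against that single array the median log2 difference of the 41 genes was -0.30, beside -0.00 over all genes, with 33 genes below 0. A fit with the run as a block compares D2 KO with that same array alone. It thus repeats these differences, is no second check, and has 1 wild-type array to test against. With the run as a block, all 14 values stayed negative and only *Abcd2* was called (-3.17, adjusted p = 0.0898, limma).

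**Figure D2:**
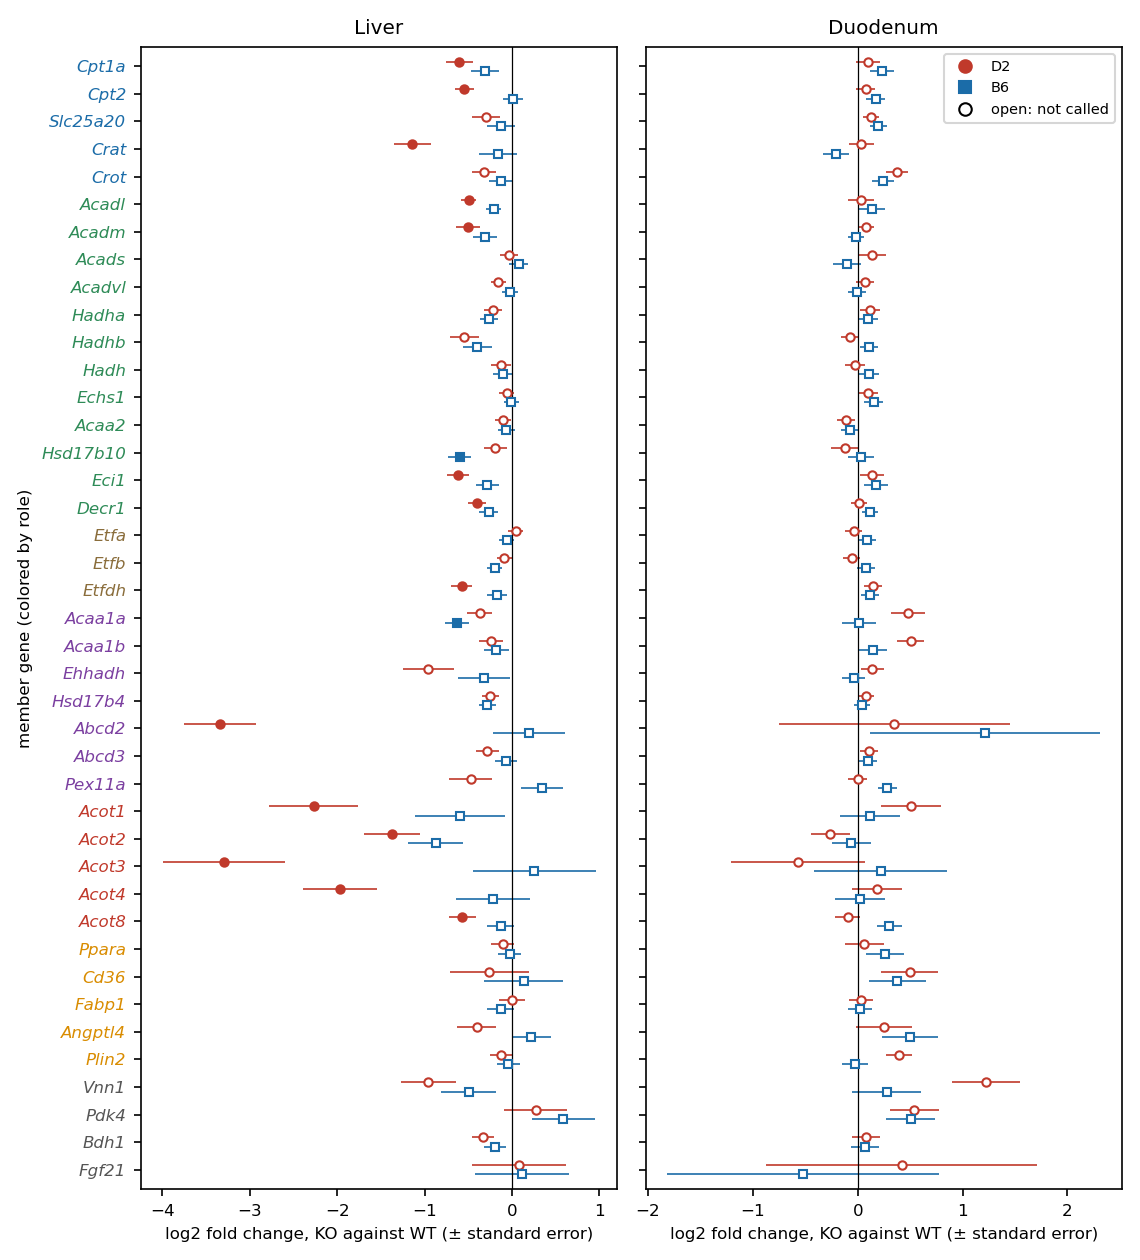
Log2 fold change of knockout over wild type in liver, with its standard error from limma (horizontal bars), for the 41 genes in D2 (red circles) and B6 (blue squares); filled symbols passed an adjusted p of 0.1. *Abcd2* and the thioesterases *Acot1*, *Acot2*, *Acot3* and *Acot4* lie farthest to the left in D2, and the filled symbols number 14 in D2 and 2 in B6.

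Of the 5 carnitine shuttle genes 3 fell in D2 KO liver, with a median log2 fold change of -0.54 over the 5. *Cpt1a*, the carnitine palmitoyltransferase that sets the rate of entry into mitochondria, had signals of 3700, 3699 and 3955 in D2 WT and 3402, 2010 and 2264 in D2 KO. The groups did not overlap, and the log2 fold change was -0.60 (SE 0.16, adjusted p = 0.0781, limma). *Cpt2*, which rebuilds acyl-CoA inside the mitochondrion, had signals of 1582, 1490 and 1449 in D2 WT and 1271, 883 and 986 in D2 KO, a log2 fold change of -0.54 (SE 0.11, adjusted p = 0.0293, limma). *Crat*, the acetyltransferase that buffers short acyl groups on carnitine, fell furthest of the 5, from 538, 506 and 429 to 355, 164 and 189 (log2 fold change -1.14, SE 0.21, adjusted p = 0.0185, limma). Of the 14 genes that fell, 8 had a total of 11 further probe sets that passed the filter, of which 9 were lower in D2 KO and 7 were called. Among the called were both further sets of *Cpt1a* (-1.39 and -0.91) and one of *Crat* (-1.34). The exceptions were dim. A probe set of *Cpt2* had the opposite sign, with group means of 20.3 in D2 WT and 35.5 in D2 KO, and one of *Crat* likewise, at 33.9 and 38.1. The translocase *Slc25a20* (-0.30) and the peroxisomal octanoyltransferase *Crot* (-0.32) were not called.

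Of the 12 genes of the mitochondrial spiral 4 fell, and all 12 had a negative value, with a median of -0.20. *Acadl*, the long-chain acyl-CoA dehydrogenase, fell from 2464, 2500 and 2369 to 1900, 1677 and 1645, and it was one of the few calls in which D2 KO 1 lay close to the other knockout arrays (log2 fold change -0.49, SE 0.09, adjusted p = 0.0119, limma). *Acadm*, the medium-chain dehydrogenase, had 5158, 4552 and 4360 in D2 WT and 4398, 3037 and 2720 in D2 KO, so that D2 KO 1 lay just within the wild-type range (-0.50, SE 0.14, adjusted p = 0.0988, limma). *Eci1* and *Decr1* encode the auxiliary isomerase and reductase needed for unsaturated chains. *Eci1* fell from 2636, 2607 and 2053 to 1979, 1415 and 1398 (-0.62, SE 0.13, adjusted p = 0.0297, limma). *Decr1* fell from 3757, 3465 and 3263 to 3090, 2604 and 2292 (-0.40, SE 0.11, adjusted p = 0.0824, limma). Neither gene's groups overlapped. The β-subunit of the trifunctional protein, *Hadhb*, had a log2 fold change of -0.54 that was not called by its brightest probe set (adjusted p = 0.129, limma). A dimmer probe set of *Hadhb*, with means of 3057 in D2 WT and 2101 in D2 KO, was called (-0.56, adjusted p = 0.0752, limma). Its dimmest set, with means of 149 and 100, was not called (-0.62, adjusted p = 0.393, limma). The α-subunit *Hadha* had a log2 fold change of -0.22. The other 6 genes of the spiral lay between -0.19 and -0.03.

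Of the 3 genes that carry electrons from the dehydrogenases to the respiratory chain, *Etfdh*, the ubiquinone oxidoreductase, fell from 2884, 2673 and 2564 to 2156, 1653 and 1672 (log2 fold change -0.58, SE 0.12, adjusted p = 0.0249, limma). The groups did not overlap. The flavoprotein subunits *Etfa* and *Etfb*, at 0.05 and -0.09, were not called.

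Of the 7 peroxisomal genes only *Abcd2* was called, while 6 of the 7 had every D2 KO array under every D2 WT array and the median was -0.37. *Abcd2* encodes a peroxisomal transporter of very long chain acyl-CoA. Its signals were 142, 132 and 114 in D2 WT and 25.2, 14.03 and 5.78 in D2 KO, a log2 fold change of -3.34 (SE 0.41, adjusted p = 0.00125, limma). The knockout signals lay near or under the median signal of an array, where values are poorly measured, and with 16 added to each signal the log2 fold change was -2.27. Its other probe sets that passed the filter were lower in D2 KO as well. *Ehhadh*, the peroxisomal bifunctional enzyme and a classical PPARA target, had 5643, 5660 and 6081 in D2 WT and 5551, 1805 and 2656 in D2 KO. D2 KO 1 lay just under the wild-type arrays and the others were at far lower signals, so the value of -0.96 was not called (adjusted p = 0.138, limma), whereas without D2 KO 1 it was -1.40 and called (adjusted p = 0.00120, limma). The thiolases *Acaa1a* and *Acaa1b* had log2 fold changes of -0.37 and -0.24.

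All 5 thioesterases measured fell in D2 KO liver, with a median log2 fold change of -1.97. *Acot1* encodes the cytosolic long-chain enzyme, *Acot2* its mitochondrial relative, and *Acot3*, *Acot4* and *Acot8* peroxisomal enzymes. *Acot1* had signals of 2000, 1888 and 1525 in D2 WT and 1299, 156 and 254 in D2 KO, a log2 fold change of -2.27 (SE 0.51, adjusted p = 0.0428, limma). *Acot3* had 867, 847 and 700 in D2 WT and 380, 33.7 and 42.2 in D2 KO (-3.30, SE 0.70, adjusted p = 0.0322, limma). In both genes D2 KO 1 lay between the wild-type arrays and the other knockout arrays, and no array of one group overlapped the other group. *Acot4* showed the same order, with 300.5, 255 and 275 in D2 WT and 201, 41.3 and 42.5 in D2 KO (-1.97, SE 0.42, adjusted p = 0.0339, limma). *Acot2* had 390, 403 and 257 in D2 WT and 271, 98.5 and 86.9 in D2 KO (-1.37, SE 0.32, adjusted p = 0.0477, limma), and *Acot8* had 312, 318 and 279 against 279, 170 and 179 (-0.57, SE 0.16, adjusted p = 0.0963, limma). In these 2 genes D2 KO 1 lay above the lowest wild-type array. *Acot1* to *Acot4* are close relatives on one chromosome, and the probe set of *Acot3* is of a type that can match several transcripts, and shared signal between them was not tested.

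Promoters of the set were searched for the PPARA half-site AGGTCA repeated in the same direction with any 1 base between the copies, on both strands, in windows of 300 bases from 250 before to 50 after each start (RefSeq, GRCm38.p6). At most 2 mismatches in the copies counted as a match. Of 39 windows, which belonged to 35 of the 42 genes, *Acsl1* among them, 7 held a match (17.9%), beside 3.86% of all 32851 windows. These 7 windows belonged to *Fabp1* (the closest, with 1 mismatch), *Acot4*, *Cd36*, *Echs1*, *Etfa*, *Plin2* and *Slc25a20*. Of these genes only *Acot4* is among the 14 that fell in D2 KO liver. Among the 14, *Abcd2*, *Crat* and *Decr1* had no window to search. A match of letters is a description, not a binding site. Below are 3 windows on the plus strand, from a thioesterase that fell and holds no match, one that fell and holds a match, and the gene with the closest match, which did not fall; capitals mark the best-matching 13 bases, and in *Acot1* they differ from the motif at 4 positions, chr12:84009252-84009551 being *Acot1*, chr12:84038129-84038428 *Acot4* and chr6:71199629-71199928 *Fabp1*.
Acot1: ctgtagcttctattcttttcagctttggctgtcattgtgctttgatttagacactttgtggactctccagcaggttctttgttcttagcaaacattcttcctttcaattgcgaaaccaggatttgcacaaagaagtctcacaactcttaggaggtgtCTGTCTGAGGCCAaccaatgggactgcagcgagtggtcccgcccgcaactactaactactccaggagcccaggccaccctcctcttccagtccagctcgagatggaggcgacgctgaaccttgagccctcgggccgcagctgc
Acot4: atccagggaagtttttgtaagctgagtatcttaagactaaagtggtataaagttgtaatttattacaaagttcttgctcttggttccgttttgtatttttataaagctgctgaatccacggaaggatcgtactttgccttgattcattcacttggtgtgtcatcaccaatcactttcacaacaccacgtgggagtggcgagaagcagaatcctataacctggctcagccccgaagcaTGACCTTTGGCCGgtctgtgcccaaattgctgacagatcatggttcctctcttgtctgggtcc
Fabp1: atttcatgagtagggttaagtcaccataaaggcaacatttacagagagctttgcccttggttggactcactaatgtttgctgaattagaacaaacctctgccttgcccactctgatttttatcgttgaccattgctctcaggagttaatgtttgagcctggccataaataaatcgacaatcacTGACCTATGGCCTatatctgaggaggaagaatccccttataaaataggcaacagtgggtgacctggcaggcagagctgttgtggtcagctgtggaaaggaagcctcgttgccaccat

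*Ppara* itself had 3996, 3907 and 3520 in D2 WT liver and 3478, 3470 and 3645 in D2 KO liver, overlapping, with a log2 fold change of -0.11 (adjusted p = 0.794, limma). None of the 5 genes of receptor, uptake and storage was called. *Fabp1*, the abundant fatty acid binding protein of liver, was at 19335, 18293 and 18714 in D2 WT and 18457, 20295 and 17733 in D2 KO, a log2 fold change of 0.00. Among these 5 genes *Cd36*, a fatty acid translocase, varied most between the D2 KO arrays relative to its mean. It had 269, 230 and 216 in D2 WT and 592, 107 and 124 in D2 KO. D2 KO 1 was thus above and the other knockout arrays below every wild-type array. Of the 4 further targets induced by fasting none was called by its brightest probe set either. *Vnn1*, a pantetheinase and PPARA target, had 3112, 3432 and 3601 in D2 WT and 3436, 1084 and 1416 in D2 KO (log2 fold change -0.96, adjusted p = 0.168, limma). The kinase *Pdk4*, the ketone body enzyme *Bdh1* and the hormone *Fgf21* had log2 fold changes of 0.28, -0.33 and 0.08. A dimmer probe set of *Bdh1*, with means of 553 in D2 WT and 382 in D2 KO, was called (-0.54, adjusted p = 0.0873, limma).

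**Figure D3:**
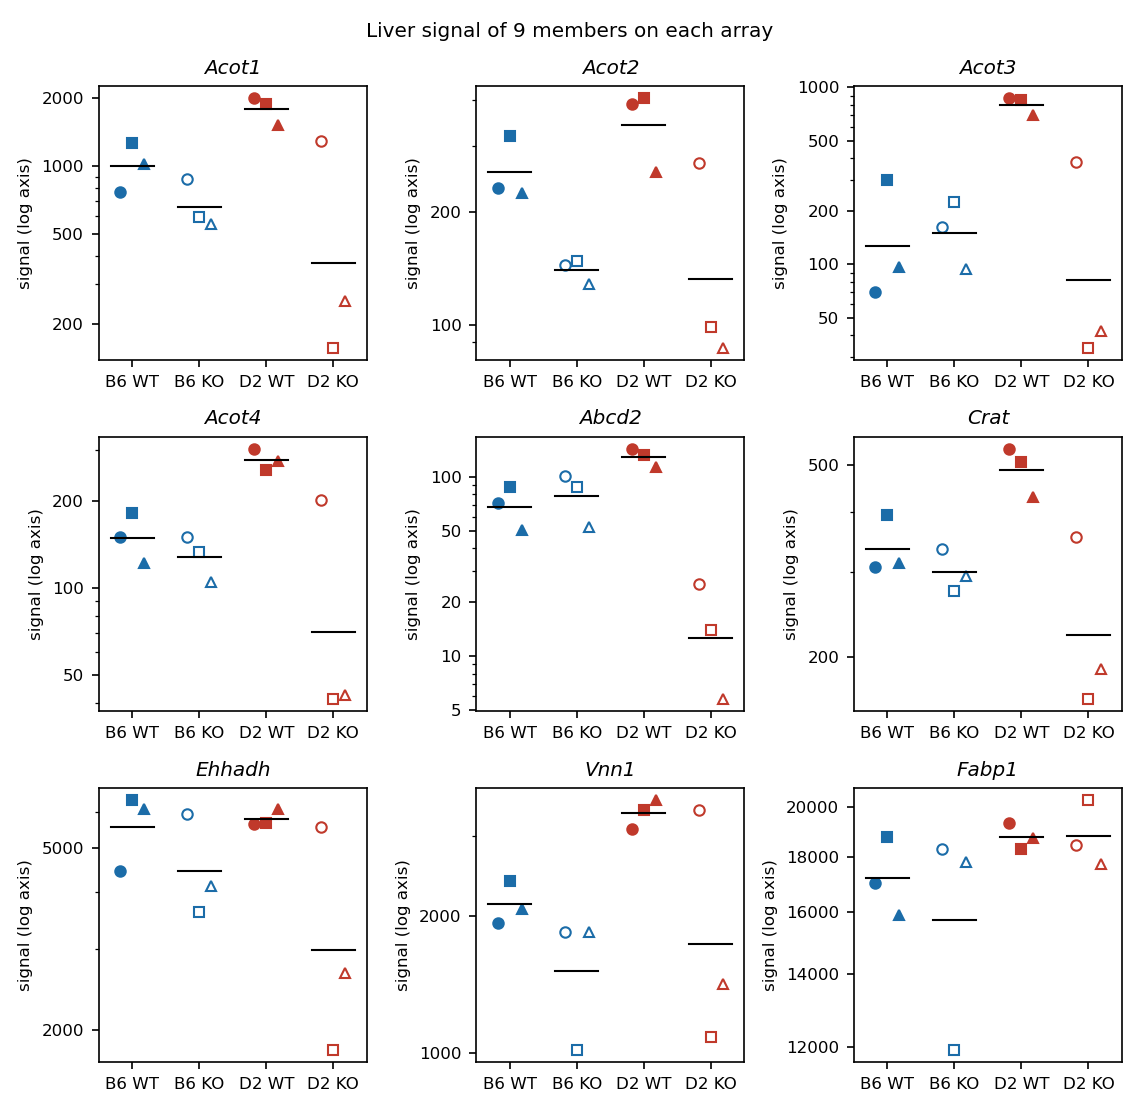
Liver signals of selected genes on each array (log axis), with a circle, square or triangle for replicate 1, 2 or 3, filled for wild type and open for knockout, and a bar at the geometric mean of each group. In the D2 KO columns the circle (D2 KO 1) stands above the other arrays in every panel but that of *Fabp1*, for example at 5551 against 1805 and 2656 for *Ehhadh*.

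A wider list of 86 other genes of fatty acid metabolism, of which 72 were tested, had a median log2 fold change of -0.16 in D2 KO liver. In it 5 genes fell and 2 rose. The ω-hydroxylases *Cyp4a14* and *Cyp4a31* fell furthest. *Cyp4a14*, a strongly PPARA-dependent gene, had 8280, 8003 and 7693 in D2 WT and 5926, 193 and 421 in D2 KO (log2 fold change -3.35, adjusted p = 0.0491, limma), with D2 KO 1 again nearest to the wild-type arrays. *Cyp4a31* fell by 2.37 on the log2 scale (adjusted p = 0.00750, limma). The thioesterase *Acot12* (-0.46), the triglyceride lipase *Pnpla2* (-0.59) and the peroxisomal isomerase *Ech1* (-0.41) fell less, and *Cyp4a12a* (0.49) and the branched-chain dehydrogenase *Acadsb* (0.35) rose. Members of the *Cyp4a* family are closely related, and their probe sets may share signal. In B6 KO liver none of the 72 genes was called by limma, and 17 had an unadjusted p under 0.05, beside 12.7% of all genes tested. Of the genes named here, *Cyp4a14*, *Cyp4a31* and *Acot12* had every B6 KO array under every B6 WT array, beside 9.4% of all genes. *Acadsb* had every B6 KO array above. *Cyp4a14* had 7502 to 8867 in B6 WT and 5569 to 6008 in B6 KO, and *Cyp4a31* had 1111 to 1371 and 467 to 775.

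In B6 liver 2 of the 41 genes fell in the knockout and none rose, beside 0.502% and 0.625% of all genes tested. *Hsd17b10*, a mitochondrial hydroxyacyl-CoA dehydrogenase of the spiral, had 3525, 3557 and 3793 in B6 WT and 2134, 2091 and 3092 in B6 KO (log2 fold change -0.60, SE 0.13, adjusted p = 0.0702, limma). *Acaa1a*, a peroxisomal thiolase, had 312, 284 and 294 in B6 WT and 215, 153 and 214 in B6 KO (-0.63, SE 0.14, adjusted p = 0.0716, limma). Neither gene's groups overlapped. A second probe set of *Acaa1a* had a log2 fold change of -0.09, and one of *Hsd17b10* had -0.69 (adjusted p = 0.0275, limma). Both calls were lost without the trend and with run as a block (adjusted p = 0.266 for *Hsd17b10* and 0.230 for *Acaa1a*, limma). The median over the 41 genes was -0.13, beside -0.00 over all genes, and 32 values were negative, beside 50.4% of all genes. For 13 of the 41 every B6 KO array lay under every B6 WT array, beside 9.4% of all genes tested. The mitochondrial spiral held 7 of these 13, among them *Acadl*, *Acadm*, *Hadha*, *Hadhb*, *Eci1* and *Decr1*, at log2 fold changes of -0.40 to -0.21 that were not called. The fit takes 1 spread per gene from all 12 liver arrays, so the unlike D2 KO arrays enter the B6 tests too. For *Acadm* the SD was 891 in D2 KO and 417 in D2 WT, beside 195 in B6 WT and 89.9 in B6 KO. The counts of calls in the strains are therefore not separate. Within the run that held the 3 B6 WT arrays and B6 KO 1, the median was -0.03, beside 0.01 over all genes, and 22 of the 41 genes lay below 0. Without single arrays between 0 and 3 genes were called in this comparison. *Hsd17b10* lost its call when any 1 of the 3 B6 WT arrays, B6 KO 1, B6 KO 2 or D2 WT 1 was left out, and *Acaa1a* when any 1 of the 3 B6 WT arrays or B6 KO 2 was.

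The thioesterases showed no call in B6. *Acot1* had 771, 1265 and 1026 in B6 WT and 880, 597 and 555 in B6 KO (log2 fold change -0.59, adjusted p = 0.714, limma). *Acot2* had 233, 320 and 226 in B6 WT and 144, 148 and 128 in B6 KO, without overlap (-0.87, adjusted p = 0.292, limma). *Acot3* and *Acot4* had log2 fold changes of 0.26 and -0.22 with overlapping groups. *Abcd2* had 71.2, 87.1 and 50.2 in B6 WT and 101, 88.0 and 52.5 in B6 KO.

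The difference of the knockout effect between strains (D2 minus B6) was tested as an interaction. It was called for *Abcd2* alone, with a value of -3.54 on the log2 scale (SE 0.59, adjusted p = 0.0271, limma), and for no gene of the set in the other direction, beside 0.0927% and 0.131% of all genes tested. The median over the 41 genes was -0.19, beside 0.02 over all genes, and 34 values were negative, meaning a lower value in D2, beside 47.6% of all genes. *Acot3* (-3.56, adjusted p = 0.218), *Acot4* (-1.75, adjusted p = 0.340), *Crat* (-0.98, adjusted p = 0.275) and *Cpt2* (-0.55, adjusted p = 0.236) were not called by limma, so that a strain difference was not shown for them. The call of *Abcd2* was lost when either D2 WT 1 or D2 WT 2 was omitted, without the trend, and with run as a block (-3.53, adjusted p = 0.326, limma). Without D2 KO 1, 11 genes were called: *Cpt2*, *Crat*, *Ehhadh*, *Abcd2*, *Pex11a*, *Acot1*, *Acot2*, *Acot3*, *Acot4*, *Acot8* and *Cd36*. The share of all genes called in that fit is not given here.

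Between the wild-type livers, 1 gene of the set was higher in D2 and 1 was lower at the stricter adjusted p of at most 0.01, beside 2.5% and 2.56% of all genes. *Bdh1*, the mitochondrial hydroxybutyrate dehydrogenase, had 1702, 1985 and 1923 in B6 WT and 3340, 2922 and 2906 in D2 WT (log2 difference 0.71, SE 0.12, adjusted p = 0.00183, limma). *Hsd17b10* had 3525, 3557 and 3793 in B6 WT and 2209, 1980 and 2184 in D2 WT (-0.77, SE 0.13, adjusted p = 0.00154, limma). The groups of both genes lay apart. *Bdh1* lost its call without B6 WT 1 or D2 WT 1, and *Hsd17b10* without D2 WT 2, and neither was called without the trend. This comparison uses the same wild-type arrays as the knockout comparisons, so its values are not independent of them. For *Acot3* the B6 WT signals were 70.2, 300.3 and 96.2, beside 867, 847 and 700 in D2 WT, a log2 difference of 2.66 that did not reach the stricter threshold (adjusted p = 0.0278, limma). *Ppara* (0.45, adjusted p = 0.0486) and *Plin2*, the lipid droplet coat protein (0.44, adjusted p = 0.0477), did not reach it by limma either. For *Ppara* the probe sets disagreed, since a dimmer one had group means of 834 in B6 WT and 458 in D2 WT (-0.86, adjusted p = 0.000665, limma) and the third set had 0.06, so no direction is given for *Ppara* between the livers.

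In duodenum no gene of the set was called for the knockout in either strain. Over all genes, 0.332% were called up and 0.154% down in D2, and 0.0% up and 0.00772% down in B6. Of the 41 genes, 6 in D2 and 4 in B6 had an unadjusted p under 0.05, beside 12.6% and 5.4% of all genes tested. The medians were 0.10 in D2 and 0.11 in B6, beside 0.01 and -0.01 over all genes. The strain difference had no call in the set either, beside 0.00772% of all genes in each direction, with 3 of the 41 at an unadjusted p under 0.05, beside 10.5% of all genes. *Vnn1* had the highest value in D2, at 560, 324 and 801 in D2 WT and 1520, 1132 and 1071 in D2 KO, without overlap (log2 fold change 1.22, SE 0.33, adjusted p = 0.185, limma). A dimmer probe set of *Vnn1*, with means of 232 in D2 WT and 503 in D2 KO, was called (1.14, adjusted p = 0.0446, limma). *Acaa1b* had 851, 823 and 1160 in D2 WT and 1214, 1336 and 1432 in D2 KO, also without overlap (0.51, SE 0.13, adjusted p = 0.175, limma). *Plin2* (0.39, adjusted p = 0.246) and *Crot* (0.37, adjusted p = 0.213) followed. All 3 D2 KO arrays were processed on the fluidics station of D2 WT 3 and not on that of D2 WT 1 and D2 WT 2. Against D2 WT 3 alone the log2 differences were 0.61 for *Vnn1*, 0.19 for *Acaa1b*, 0.60 for *Plin2* and 0.14 for *Crot*. Without D2 WT 3 there were 3 called genes in D2, without D2 KO 1 there was 1, and without any other single array there were 0. The duodenum arrays differed in pancreatic acinar signal, with 8 of 10 genes measured. Their sum was 71028 in D2 KO 1 but 578 and 1684 in D2 KO 2 and D2 KO 3, beside 20193 to 49841 in D2 WT, 7413 to 40769 in B6 WT and 31662 to 64425 in B6 KO. Enterocyte markers, 7 of 8 measured, summed to 20713 to 25766 in D2 WT and 22387 to 23995 in D2 KO. The part of the acinar signal in these values was not tested.

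The wild-type strains differed in duodenum for 4 genes of the set, all higher in D2 by their brightest probe set, at an adjusted p of at most 0.01, beside 1.34% of all genes higher and 1.99% lower. *Acadl* had 1335, 1502 and 1520 in B6 WT and 3210, 2620 and 2742 in D2 WT (log2 difference 0.97, SE 0.13, adjusted p = 0.000346, limma). *Cd36* had 258, 150 and 146 in B6 WT and 625, 459 and 753 in D2 WT (1.75, SE 0.27, adjusted p = 0.00138, limma). In both genes the strains lay apart, and *Cd36* varied more within each. *Ppara* had 471.5, 346 and 327 in B6 WT and 781, 796 and 789 in D2 WT (1.07, SE 0.18, adjusted p = 0.00280, limma). Its probe sets disagreed here too, as a dimmer one had means of 171 in B6 WT and 90.5 in D2 WT and was called the other way (-0.92, adjusted p = 0.00633, limma), and the third had 0.40. *Pex11a*, which takes part in peroxisome division, had 478.5, 510 and 459 in B6 WT and 649, 637 and 697 in D2 WT (0.45, SE 0.09, adjusted p = 0.00781, limma). A dimmer set of *Pex11a* was higher in D2 WT as well but not called (0.30, adjusted p = 0.170, limma). The further sets of *Cd36* were likewise higher and not called (1.32 and 0.78, adjusted p = 0.0271 and 0.288, limma). The median over the 41 genes was 0.17, beside 0.01 over all genes. The B6 WT arrays were hybridized in another run than the D2 WT arrays, and with run as a block, where the B6 KO arrays alone link the runs, the log2 differences of *Acadl*, *Cd36*, *Ppara* and *Pex11a* were 0.74, 1.23, 0.71 and 0.22 and none was called. Without the trend 2 of the 4 were called. Without single arrays *Acadl* stayed called in all 12 cases, *Cd36* in 11 (not without B6 WT 3), *Ppara* in 7 and *Pex11a* in 3.

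**Figure D4:**
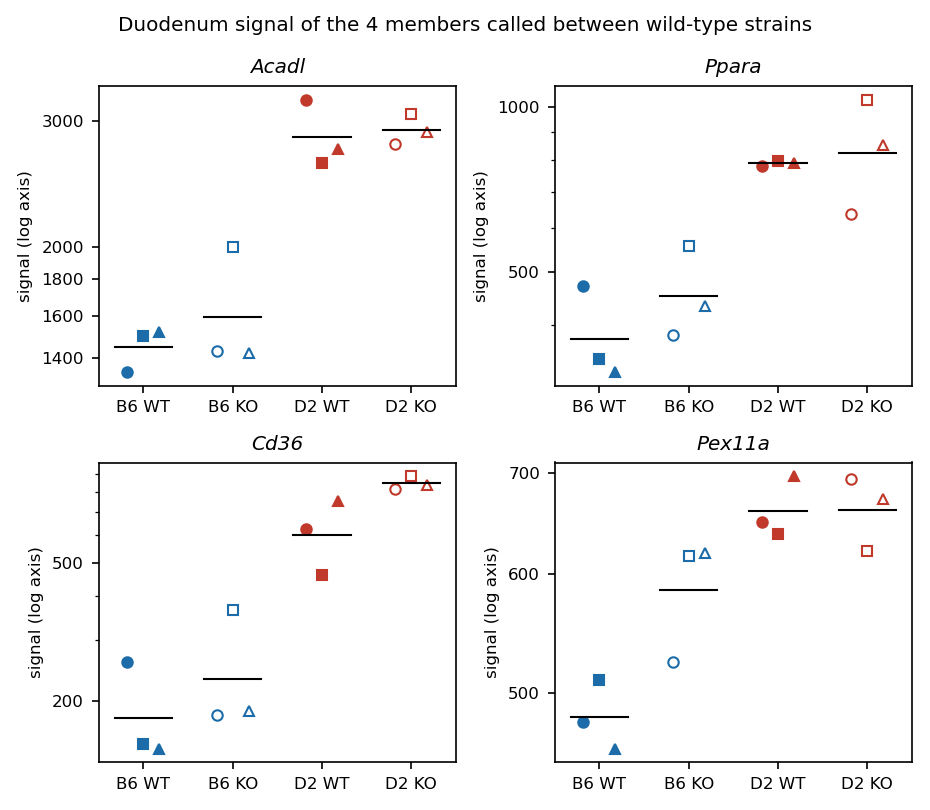
Duodenum signals of genes that differed between the wild-type strains, on each array (log axis), split by group, with wild types filled and knockouts open, the marker shape giving the replicate (circle 1, square 2, triangle 3) and bars the geometric means. For *Acadl* the D2 WT arrays lie between 2620 and 3210, above the B6 WT arrays at 1335 to 1520.

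The set was mostly a liver set by level. In B6 WT, 35 of the 41 genes had every liver array above every duodenum array, and in D2 WT 37 did, with 34 in both strains, beside 29.5% and 28.7% of all genes tested. In B6 WT 2 genes lay lower in liver and in D2 WT 4 did, beside 40.4% and 38.7% of all genes. These are levels of arrays scaled separately, with no test. The median log2 difference of liver minus duodenum was 1.34 in each strain, beside -0.19 in B6 and -0.16 in D2 over all genes. *Acaa1b* was at 12341 ± 987 (SD, n = 3) in B6 WT liver and 872 ± 98.2 in B6 WT duodenum, a log2 difference of 3.83, and at 3.84 in D2. *Ppara* was 2.89 log2 units higher in liver in B6 and 2.27 in D2. The liver signals of *Abcd2*, *Acot3* and *Fgf21* lay further still above duodenum signals that were near or under the array median, so their ratios are poorly measured. *Pdk4*, the kinase that restrains pyruvate dehydrogenase, lay lower in liver in both strains, at 69.0 ± 23.1 against 298 ± 42.0 in B6 WT and 67.2 ± 14.7 against 179 ± 68.6 in D2 WT (SD, n = 3). *Acot8* was also lower in liver, by 0.71 log2 units in B6 and 0.80 in D2. In D2 alone *Cd36* (239 against 612) and *Acadl* (2444 against 2857) were lower in liver as well.

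**Figure D5:**
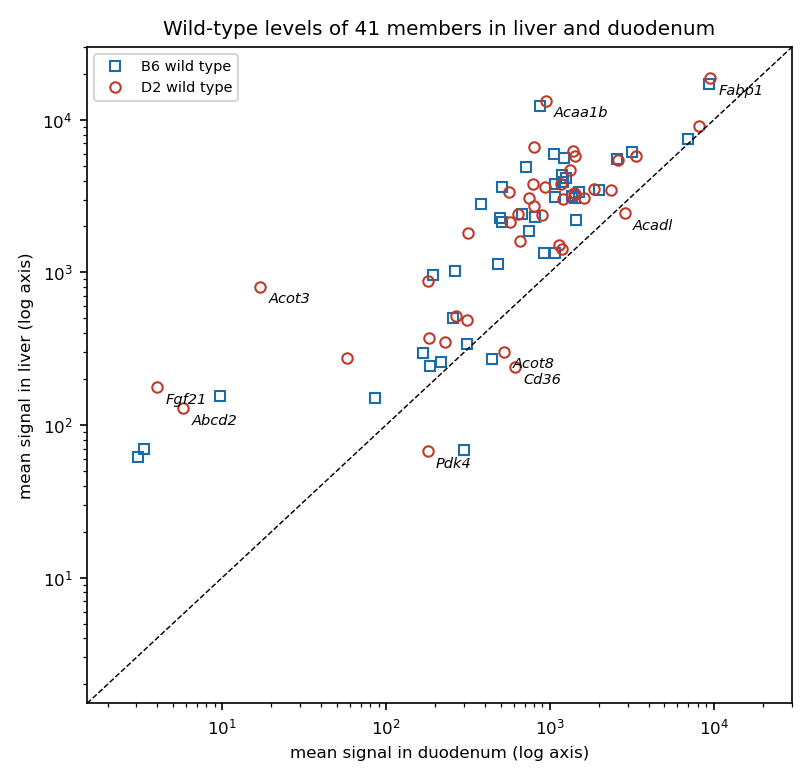
Mean signal of each of the 41 genes in wild-type liver against wild-type duodenum, by strain (log axes, 3 arrays per mean), with a dashed line where both are equal. Most genes lie on the liver side of the line, and *Pdk4* and *Acot8* lie on the duodenum side in both strains.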

How the data were processed

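Total RNA was extracted by the authors with an RNeasy lipid tissue kit and hybridized to 1 array per sample. The deposited values are signal intensities on a linear scale, made by the authors with MAS5 (submitters' processing notes; version not given in the sources used here) and scaled to a mean of 100 per array without the outer 2%. No detection calls and no probe-level data were used, so the S-score and SAM statistics of the study's methods were replaced by limma. The array files name no genome build.

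From these intensities, log2 signals were taken with no offset. The study kept probe sets by detection calls, which were not used here. In their place, the same number of probe sets, 28031 of 45101, was kept by the largest third-highest signal in a tissue (at least 20.06), so the sets kept need not be the study's. A gene was represented by its brightest probe set of 1 symbol (mean of log2 over the 24 arrays), and its other such probe sets served as a check. Symbols came from GEO's platform table: 34958 probe sets had 1 symbol, 932 several and 9211 none. limma 3.58.1 in R 4.3.3 (lmFit, eBayes with trend) was fitted to the 12 arrays of a tissue with 4 group means. P-values were adjusted by Benjamini-Hochberg over the 28031 probe sets kept, and the 12950 genes were then read from their brightest probe sets. Calls required an adjusted p of at most 0.1 for knockout and interaction and 0.01 for strains, after the false discovery rates of the study. Its added limits on the S-score were not applied and the interaction test is not from its methods, so the calls do not follow its criteria. The number of arrays limits the precision, and an exact permutation test of 3 arrays against 3 cannot go below 0.1. The fit was tried on these arrays with group means set equal and known shifts added to some probe sets. With no other difference left between the groups, that trial cannot show the rate of false calls.

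Members and lists were chosen with earlier results of these data known, so no test was run over a list. All members could be named. Members called in a knockout comparison are given with every array, others by values where a sentence turns on them, and of the wider list at most the 6 with the smallest adjusted p in each comparison and direction. Hybridization runs were arrays hybridized within 30 minutes of each other, from the experiment files. No column of per-sample values was left unused. The alternatives tried were an offset of 16, quantile and median scaling, no filter and a stricter one, and the mean of all probe sets. Others were no trend, fits of 6 arrays, a threshold of 0.05, and run and replicate blocks. The 11 genes listed as named by the study were also omitted, and each array was left out in turn. Leaving out D2 KO 2 and D2 KO 3 together was chosen after seeing the data.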

Additional observations from a re-analysis of the deposited data

Results flagged for a closer look

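The knockout effect on *Abcd2* in liver differed between the strains by -3.54 on the log2 scale (D2 minus B6), by the interaction term of limma (adjusted p = 0.0271). The call was lost with run as a block (adjusted p = 0.326, limma), without the trend, and without D2 WT 1 or D2 WT 2. The D2 KO signals, 25.2, 14.03 and 5.78, lay near or under the array median.

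For 5 results every knockout array of a strain lay under its wild-type arrays in liver and above them in duodenum, 3 in D2 and 2 in B6, beside 0.703% and 0.448% of all genes tested. Some margins were small: for *Cpt1a* in B6 liver the highest knockout signal was 3167 and the lowest wild-type signal 3170, and for *Etfdh* in D2 duodenum the nearest signals were 818 and 816. The differences of the log2 fold changes (liver minus duodenum) were -0.85 for *Acaa1a*, -0.74 for *Acaa1b* and -0.72 for *Etfdh* in D2, and -0.54 for *Cpt1a* and -0.38 for *Decr1* in B6. The difference between the tissues was not tested.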

How the results depend on the processing

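The count of genes of the set that fell in D2 KO liver was 14. It was 1 without the trend in the prior variance, 1 with run as a block, 8 with only the 6 arrays compared, 9 with a gene's probe sets averaged, and 9 without the genes the study names. Leaving out single arrays gave 3 to 22, with medians of -0.51 to -0.26. For these alternatives the share of all genes called is not given here. Without D2 KO 2 and D2 KO 3 together, a fit in which the lone D2 KO array is assumed to vary like the other groups, the count was 1 and the median -0.12. Without D2 WT 1, D2 WT 2 or D2 WT 3 the count was 3, 6 or 10. *Abcd2*, *Acadl* and *Crat* stayed called without any single array. With probe sets averaged *Cpt2* turned to 0.083 (adjusted p = 0.927, limma), where a single dimmer probe set has the opposite sign. The other counts lay within 1.5 times of 14. In B6 liver the count of 2 became 0 without trend, with run as a block and at an adjusted p of 0.05. It was 1 with 6 arrays, with the mean of probe sets and without the genes the study names, and 0 to 3 without single arrays. The interaction count of 1 was 0 without trend and with run as a block and 0 to 11 without single arrays, with medians of -0.35 to -0.11. Without D2 KO 2 and D2 KO 3 together its median was 0.0076. The count of 2 between wild-type livers was 0 without trend, 8 with 6 arrays, 4 without D2 KO 2 and D2 KO 3, 6 at 0.05, 1 without the genes the study names, and 1 to 4 without single arrays.

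In duodenum the D2 knockout count was 0 to 3 without single arrays. The B6 knockout median was 0.0302 with run as a block. The interaction median was 0.0516 with run as a block, 0.056 with the mean of probe sets and -0.0566 to 0.0406 without single arrays. The wild-type strain count of 4 was 2 without trend, 0 with run as a block, 1 with the mean of probe sets, 8 at 0.05 and 1 to 4 without single arrays, and its median was 0.12 with run as a block. Unless a construction above shows it, the cause was not tested.

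Groups share replicate numbers, but arrays of 1 number did not deviate together (r of -0.159 to 0.031). With a replicate block 13 genes fell in D2 KO liver, as *Cpt1a* missed the threshold (adjusted p = 0.101, limma), and *Pex11a* missed it between wild-type duodena (adjusted p = 0.0194, limma). Signals near the array median, such as those of *Abcd2* in D2 KO liver, are poorly measured.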
